A study of Mus musculus with 12 samples.

Results

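Glutamine and glutamate metabolism was followed through 9 enzyme genes, Gls2, Glul, Glud1, Got1, Got2, Gfpt1, Ppat, Cad and Oat, which were picked by gene name out of 50433 gene rows shared by both count tables of the series. RNA sequencing was performed on renal tubular epithelial cells (TECs) and on blood neutrophils (polymorphonuclear cells, PMN) of mice with ischemia-reperfusion injury (IRI), a model of acute kidney injury (AKI). The questions addressed were which of these enzymes each cell type expressed, and whether their transcripts differed between mice given glutamine and mice given vehicle.

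All mice were male C57BL/6J wild-type animals aged 8 to 12 weeks, all had both renal pedicles clamped for 35 minutes, and cells were taken 24 hours after IRI. The 4 groups of 3 libraries each were TECs after glutamine (replicates 1, 2 and 3), TECs after vehicle (replicates 3, 4 and 5), PMN after glutamine and PMN after vehicle. Glutamine was injected intravenously as the alanyl-glutamine dipeptide at 0.5 g/kg, for TECs 15 minutes after reperfusion, and vehicle was saline; the time of injection for the PMN mice was not given in the sources used here. TECs were sorted by FACS as cells without CD45 that carried prominin-1. Every group had IRI, and uninjured mice were not analysed here. The labels do not say whether the libraries of a group came from separate animals, and p-values therefore measure only the spread between these libraries. In bulk libraries, fewer cells of a type and less RNA per cell cannot be told apart.

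Glutamine, the most abundant free amino acid in blood, is split by glutaminases into glutamate and ammonia, and is made again from both by glutamine synthetase. Glutamate dehydrogenase and the aminotransferases pass its nitrogen and carbon between the amino acid pool and the tricarboxylic acid cycle, which in the proximal tubule feeds ammonia excretion and glucose production. The amidotransferases take the amide nitrogen of glutamine to begin hexosamine, purine and pyrimidine synthesis.

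The TEC libraries held 5397371 to 10223463 estimated counts and the PMN libraries 20226512 to 21879769. The PMN libraries resembled each other less than the TEC libraries did: Pearson's r of log2(count + 1) across genes was 0.771 to 0.824 between PMN libraries and 0.947 to 0.962 between TEC libraries, where genes are not independent replicates. Many moderately expressed genes were read in some PMN libraries and missing in others. Among genes tested with a mean of 10 to 50 CPM (counts scaled to a common library size), 53.0% of 4091 in PMN had at least 1 library at 1 count or fewer, against 0.258% of 5432 in TECs, and at a mean of 50 to 200 CPM the shares were 9.19% of 2297 and 0% of 2311. The labelled cell types carried their markers. The 10 proximal tubule markers summed to between 9229 and 17840 CPM in TECs and between 308.7 and 447.2 CPM in PMN, and the 11 neutrophil markers summed to between 102.3 and 255.6 CPM in TECs and between 22050 and 73290 CPM in PMN. The 8 macrophage and dendritic cell markers also summed to between 11480 and 25450 CPM in the PMN libraries, with all 8 read in both PMN groups. The 4 T cell markers summed to between 0.0952 and 17.9 CPM in PMN and between 1.18 and 4.62 CPM in TECs. Of these, Cd3e was at 0 in all 6 PMN libraries, while the highest sum was in PMN vehicle library 2. The PMN vehicle library 1 held 1026 CPM of Umod, a thick ascending limb gene, whereas the other 5 PMN libraries held 0.612 to 33.5 CPM. In PMN vehicle library 2 the 3 endothelium markers summed to 1214 CPM, against 0.762 to 58.4 CPM in the other 5. The 3 platelet markers summed to between 470.7 and 1053 CPM in PMN and between 6.54 and 25.7 CPM in TECs. The part of RNA from other cells in the PMN values was not tested.

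The genes lie on the GRCm38 assembly, which is the build mm10 named by the labels, at the following positions in GENCODE M21. Gls2 is at chr10:128194457-128210004 on the plus strand and Glul at chr1:153899944-153909723 on the plus strand. Glud1 is at chr14:34310727-34345265 on the plus strand, Got1 at chr19:43499752-43524605 on the minus strand and Got2 at chr8:95864134-95888547 on the minus strand. Gfpt1 is at chr6:87042846-87092197 on the plus strand, Cad at chr5:31054780-31078479 on the plus strand and Oat at chr7:132557478-132576398 on the minus strand. Ppat is at chr5:76913249-76951578 on the minus strand, and its 5′ end overlaps that of Paics on the plus strand. The sources used here do not say whether counting used strand, so reads over that overlap cannot be told apart. All 9 are annotated as protein-coding.

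In vehicle-treated TECs the enzyme genes spanned a wide range of levels, led by glutamine synthetase. Levels of different genes are compared here only as CPM per kilobase (kb) of the median annotated transcript. Glul stood first with 1896 ± 197 CPM per kb (mean ± SD, n = 3), followed by Glud1 with 462 ± 44.2. Next came Got2 with 157 ± 21.4, Got1 with 115 ± 18.9 and Oat with 53.0 ± 8.14. The ranges of these 5 genes did not overlap between neighbours in the order, and that of Oat lay above that of Gfpt1. Below them came Gfpt1 with 15.8 ± 4.61, Cad with 10.1 ± 5.25, Ppat with 4.12 ± 1.72 and Gls2 with 0.775 ± 0.574 CPM per kb. The ranges of Gfpt1 and Cad overlapped, as did those of Cad and Ppat, while Ppat lay above Gls2 in every library. On the length of the longest transcript instead, these 5 genes kept their order, Glud1 (95.2 ± 9.11) and Got2 (85.7 ± 11.7) overlapped, and Ppat (3.95 ± 1.64), Gfpt1 (3.18 ± 0.928) and Cad (1.08 ± 0.563) followed in that order.

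In vehicle-treated PMN the first places were held by Glul with 455 ± 146 CPM per kb, Glud1 with 196 ± 61.2 and Oat with 131 ± 9.86, and the ranges of Glud1 and Oat overlapped while those of Oat and Got1 did not. Got1 followed with 72.3 ± 46.5, Got2 with 46.8 ± 49.2 and Cad with 30.0 ± 35.1, and these 3 overlapped one another. Gfpt1 was at 0.544 ± 0.471 CPM per kb, and Gls2 and Ppat had no count in any of the 3 libraries. On the length of the longest transcript Oat (75.4 ± 5.70 CPM per kb) moved above Glud1 (40.5 ± 12.6) and overlapped Glul (89.6 ± 28.7). In the vehicle groups Oat thus stood below both aspartate aminotransferase genes in TECs and above their means in PMN on either length, as the plot of levels per kilobase shows. In glutamine-treated PMN it stood below both, at 48.2 ± 46.5 CPM per kb of the median transcript against 121 ± 27.1 for Got2 and 119 ± 49.0 for Got1.

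**Figure D1:**
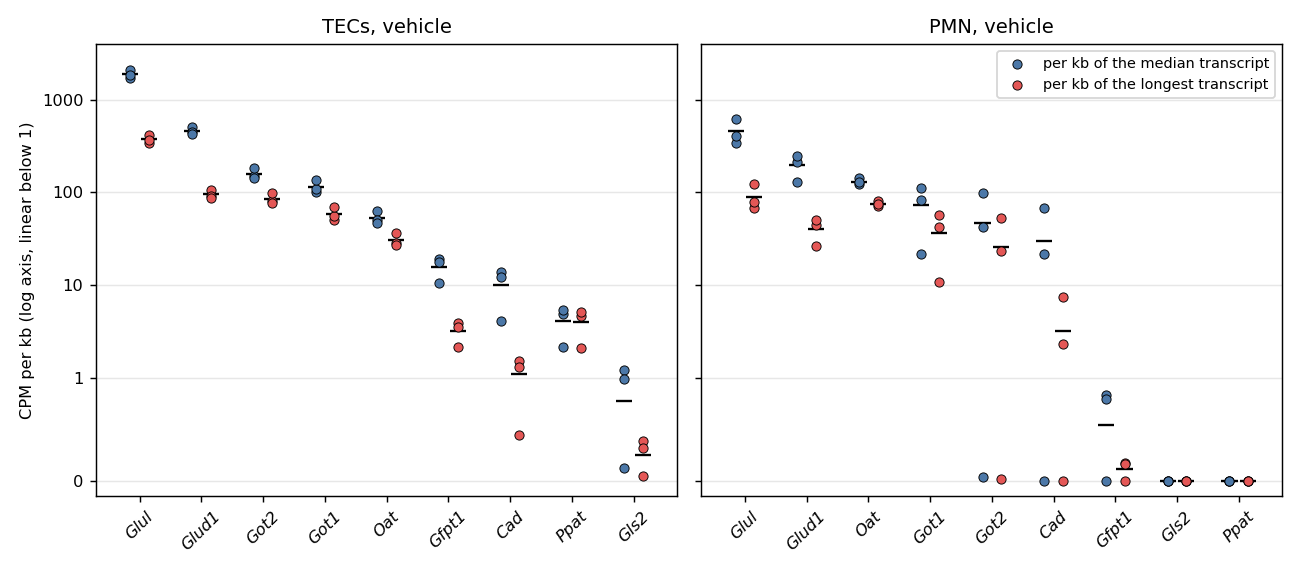
CPM per kilobase of transcript (vertical axis, logarithmic above 1 and linear below) of the 9 enzyme genes in vehicle-treated TECs (left) and PMN (right), each point 1 library and each bar the mean of 3, in blue on the median and in red on the longest annotated transcript. Glul has the highest mean in both cell types, overlapped by Oat in PMN on the longest transcript, and Gls2 and Ppat lie at 0 in all 3 PMN libraries.

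Glul encodes glutamine synthetase, the enzyme that fixes ammonia onto glutamate. In vehicle-treated TECs Glul read 944.1, 1159 and 1026 CPM in replicates 3, 4 and 5, and in glutamine-treated TECs 697.2, 961.5 and 987.4 CPM in replicates 1, 2 and 3. These levels placed it above 99.1% of the genes tested in each of the 6 libraries, and the ranges of the groups overlapped. The log2 fold change, glutamine against vehicle, was -0.24 ± 0.21 (SE), with a 95% interval from -0.69 to 0.21 and an adjusted p of 0.652 by the quasi-likelihood test of edgeR, adjusted after Benjamini and Hochberg over all genes tested, which is the test behind every adjusted p below unless another is named. In PMN, vehicle libraries 1, 2 and 3 read 187.7, 221.9 and 340.5 CPM and glutamine libraries 264.5, 185.6 and 131.8 CPM. These ranges overlapped as well, and the log2 fold change was -0.37 ± 0.43 with an interval from -1.38 to 0.65. Without PMN glutamine replicate 1 it was -0.68 ± 0.48, and without PMN vehicle replicate 3 it was -0.08 ± 0.48.

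Gls2, the liver-type glutaminase that opens glutamine breakdown, was close to the detection limit. The TEC libraries held 10, 9 and 1 counts of it after vehicle (0.987, 0.806 and 0.102 CPM) and 6, 2 and 4 counts after glutamine (0.721, 0.402 and 0.439 CPM). All 6 PMN libraries held 0 counts, which allows up to 3 counts per library, or 0.137 to 0.159 CPM; this limit covers counting error only. Gls2 did not pass the filter on low counts in TECs, in PMN or between them, and no fold change is given.

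Glud1 encodes glutamate dehydrogenase, the mitochondrial enzyme that releases ammonia from glutamate. It read 357.5, 312.6 and 298.4 CPM in vehicle-treated TECs and 230.4, 228.3 and 331.7 CPM in glutamine-treated TECs. Glutamine replicates 1 and 2 lay below every vehicle library and replicate 3 within their range, and the log2 fold change was -0.29 ± 0.21 (interval -0.76 to 0.17, adjusted p 0.592). Without glutamine replicate 3 it was -0.49 ± 0.20 (unadjusted p 0.0332, adjusted p 0.330), and without glutamine replicate 1 or 2 it was -0.20. In PMN, Glud1 read 150.2, 172.0 and 89.4 CPM after vehicle and 107.6, 118.3 and 139.4 CPM after glutamine. The glutamine libraries lay inside the vehicle range, with a log2 fold change of -0.17 ± 0.47 (interval -1.29 to 0.95).

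Got1 and Got2 are the cytosolic and the mitochondrial aspartate aminotransferase, which exchange amino groups between glutamate and aspartate and form the core of the malate-aspartate shuttle. Got1 read 104.6, 113.2 and 142.3 CPM in vehicle-treated and 102.6, 129.1 and 129.2 CPM in glutamine-treated TECs. Got2 read 204.8, 195.0 and 250.5 CPM in vehicle-treated and 176.5, 224.5 and 211.2 CPM in glutamine-treated TECs. The groups overlapped for both, and the log2 fold changes were 0.00 ± 0.21 (interval -0.46 to 0.46) for Got1 and -0.09 ± 0.20 (interval -0.53 to 0.35) for Got2.

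The same 2 genes were more uneven in PMN. Got1 read 22.4, 117.6 and 87.1 CPM after vehicle and 88.3, 183.2 and 102.1 CPM after glutamine, with a log2 fold change of 0.72 ± 0.74 (interval -1.03 to 2.46). Without vehicle replicate 1 the fold change of Got1 was 0.27 ± 0.62, and without vehicle replicate 2 it was 1.18 ± 0.87. Got2 read 58.3, 0.0455 and 135.4 CPM after vehicle, where the middle value is a single count in library 2, and 140.0, 150.5 and 209.5 CPM after glutamine. All 3 glutamine libraries thus lay above all 3 vehicle libraries for Got2, by a narrow margin over vehicle library 3. The log2 fold change of 1.37 ± 1.67 had an interval from -2.58 to 5.31. Without vehicle replicate 2, the library with a single count, it was 0.78 ± 0.62, without vehicle replicate 3 it was 2.50 ± 2.11, and with limma-voom it was 4.41 (unadjusted p 0.0854).

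Oat encodes ornithine aminotransferase, which links ornithine to glutamate and proline. It read 77.4, 61.8 and 58.5 CPM in vehicle-treated and 47.8, 76.7 and 65.8 CPM in glutamine-treated TECs, with a log2 fold change of -0.06 ± 0.24 (interval -0.58 to 0.46). In PMN the vehicle libraries lay close together at 151.5, 175.6 and 159.8 CPM. The glutamine libraries read 3.91, 119.4 and 56.3 CPM, all below the vehicle libraries, and differed 30.6-fold between the lowest and the highest. The log2 fold change of Oat in PMN was -1.44 ± 1.04 (interval -3.91 to 1.03, unadjusted p 0.210); without glutamine replicate 1, the library at 3.91 CPM, it was -0.90 ± 0.58, without glutamine replicate 2 it was -2.50 ± 1.20, and with limma-voom it was -2.35 (unadjusted p 0.0571).

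Gfpt1 encodes the amidotransferase that commits glutamine to hexosamines. It read 24.2, 22.0 and 13.3 CPM in vehicle-treated and 25.4, 20.1 and 14.7 CPM in glutamine-treated TECs, and the log2 fold change was 0.01 ± 0.32 (interval -0.69 to 0.71). In PMN it was scarce, with 0, 1.05 and 0.9996 CPM after vehicle (0, 23 and 21 counts) and 2.22, 6.87 and 4.46 CPM after glutamine (42, 146 and 89 counts). Each glutamine library lay above each vehicle library, and the log2 fold change of 2.71 ± 1.60 had an interval from -1.08 to 6.51 and an unadjusted p of 0.134; with limma-voom it was 3.78 (unadjusted p 0.0897).

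Ppat encodes the amidotransferase of the first step of purine synthesis. It read 8.58, 19.4 and 21.2 CPM in vehicle-treated and 16.2, 11.9 and 12.3 CPM in glutamine-treated TECs, which gave a log2 fold change of -0.28 ± 0.37 (interval -1.09 to 0.52). Without TEC vehicle replicate 3 the fold change was -0.60 ± 0.31, and without TEC vehicle replicate 5 it was -0.06 ± 0.39. In PMN the 3 vehicle libraries held 0 counts, and the glutamine libraries held 1033, 0 and 5 counts (54.6, 0 and 0.251 CPM). A single library therefore carried nearly all PMN counts of Ppat, the gene did not pass the filter there, and no fold change is given. Paics, the neighbour whose start region Ppat overlaps and another purine synthesis enzyme, read 0, 59.8 and 104.0 CPM in the PMN glutamine libraries 1, 2 and 3. The library with 1033 counts of Ppat thus had no Paics counts, and library 3, with 5 counts of Ppat, had the highest Paics of the 3. In the PMN vehicle libraries 1, 2 and 3, where Ppat was at 0, Paics read 107.8, 28.9 and 8.24 CPM. The part of reads over the overlap in the counts of either gene was not tested.

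Cad encodes the trifunctional protein of the first steps of pyrimidine synthesis, one of whose activities is an amidotransferase. In vehicle-treated TECs it read 10.7, 9.41 and 3.16 CPM and in glutamine-treated TECs 1.68, 4.22 and 5.59 CPM. Vehicle replicate 5 fell within the range of the glutamine libraries, and the other 2 vehicle libraries lay above it. At -1.01 ± 0.58 (interval -2.30 to 0.27), Cad had the largest log2 fold change of the 8 enzymes tested in TECs, with an unadjusted p of 0.109 and an adjusted p of 0.490; without vehicle replicate 5 it was -1.39 ± 0.53 with an unadjusted p of 0.0242 and an adjusted p of 0.213, while without glutamine replicate 1 it was -0.65 and without vehicle replicate 3 it was -0.72. In PMN, Cad held 1047, 0 and 345 counts after vehicle (52.5, 0 and 16.4 CPM) and 0, 0 and 1 counts after glutamine. The vehicle library without Cad counts lay with the glutamine libraries, and the gene did not pass the edgeR filter in PMN. DESeq2's Wald test, which applies its own filter, called it lower after glutamine with an adjusted p of 0.0375, whereas edgeR without a filter gave 0.554. The vehicle library with the most Cad, library 1, was the one with 1026 CPM of Umod; the part of tubule RNA in its Cad counts was not tested.

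**Figure D2:**
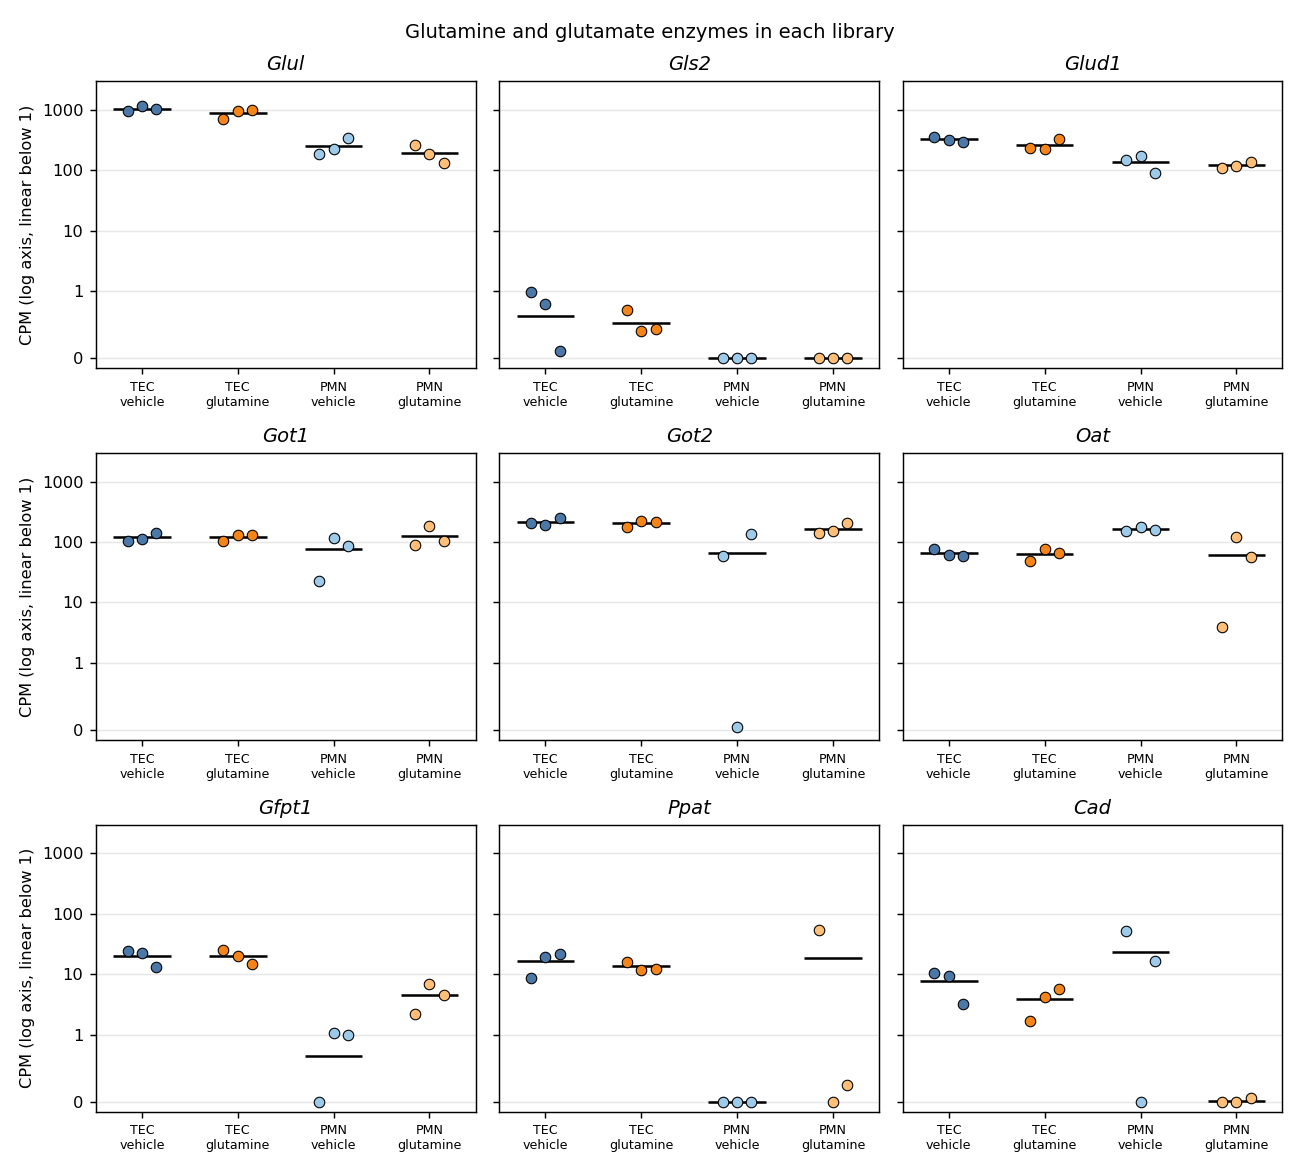
CPM (vertical axis, logarithmic above 1 and linear below) of each enzyme gene in the 12 libraries, each point 1 library and each bar the mean of a group of 3. TEC values lie close together for Glul, Glud1, Got1, Got2 and Oat, while Got2, Oat, Ppat and Cad have PMN libraries far apart within a group.

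Taking the comparison of glutamine with vehicle in TECs as a whole, none of the 8 enzyme genes tested passed an adjusted p of 0.05 in edgeR, none had an unadjusted p under 0.05, and DESeq2 and limma-voom called none. The background was equally empty after adjustment: 0% of 14734 genes passed in edgeR, while 12.8% had an unadjusted p under 0.05. Nor did the groups separate for any of the 8, against 9% of all genes tested with every glutamine library above every vehicle library and 9.81% with every one below. The intervals leave room for modest differences. For Glul, Glud1, Got1, Got2 and Oat no bound exceeded 0.76 on the log2 scale in either direction. The libraries did differ in other respects: the 5 markers of the S3 segment of the proximal tubule summed to between 103.3 and 181.3 CPM in vehicle-treated and between 254.0 and 366.5 CPM in glutamine-treated TECs, with none of the 5 past an adjusted p of 0.05. Taken singly, 2 of the 5 were higher and 1 was lower in every glutamine library than in every vehicle library. Havcr1, a marker of injured tubule, read 792.9, 540.6 and 106.0 CPM in vehicle-treated and 94.1, 49.4 and 26.2 CPM in glutamine-treated TECs, lower in every glutamine library and lowest among the vehicle libraries in replicate 5; the 4 injured tubule markers together summed to between 2017 and 4929 CPM and between 2011 and 2658 CPM. The part of these markers in the enzyme levels was not tested.

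In PMN, none of the 6 enzyme genes tested passed in edgeR, with adjusted p values that round to 1.0, none had an unadjusted p under 0.05, limma-voom called none and DESeq2 called Cad alone, where it called 326 of 11823 genes in all. The background in edgeR was again 0% of 10134 genes, with 3.48% at an unadjusted p under 0.05. Gfpt1 and Got2 were higher in every glutamine library than in any vehicle library and Oat was lower, against 5.86% of all genes higher and 4.64% lower by the same rule. The intervals of the PMN fold changes were wide. That of Glul, the narrowest, ran from -1.38 to 0.65 on the log2 scale and that of Got2, the widest, from -2.58 to 5.31, so that severalfold differences of most of the 6 were not detectable at this spread.

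**Figure D3:**
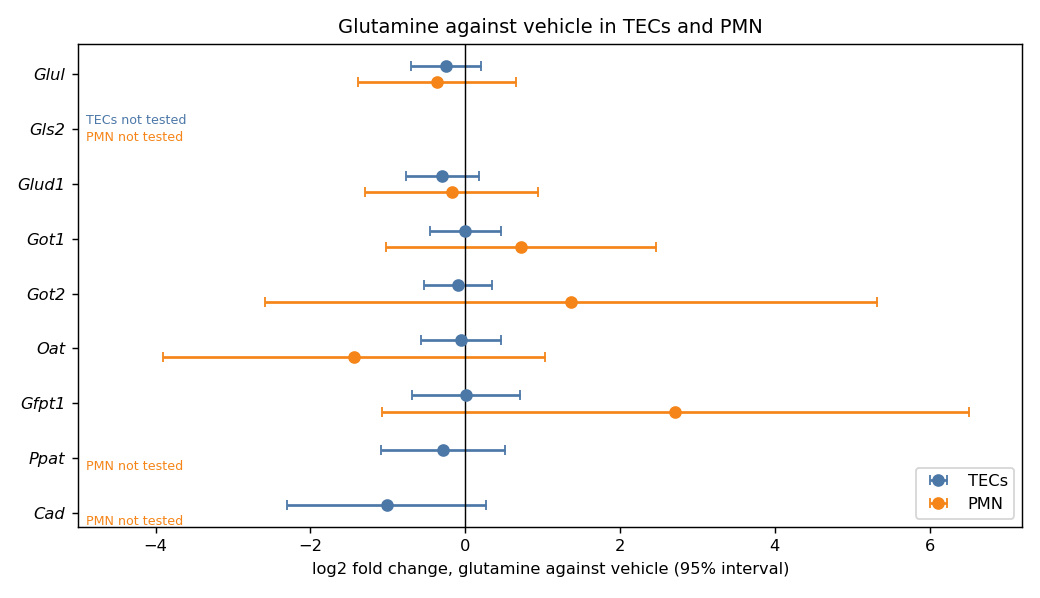
Log2 fold change of each enzyme gene, glutamine against vehicle (horizontal axis), with its 95% interval from edgeR, for TECs in blue and PMN in orange, 3 libraries against 3. Every interval includes 0, and the PMN intervals are wider than the TEC intervals for each gene tested in both.

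Whether glutamine acted differently in the 2 cell types was tested as an interaction over all 12 libraries, the PMN change minus the TEC change. Of 17082 genes, 0.0995% (17) passed an adjusted p of 0.05, and none of the 9 enzyme genes did. The count over all genes was 0 on leaving out any TEC library and with weighted limma-voom, and 95 to 151 on leaving out a PMN library. Ppat (unadjusted p 0.00937) and Cad (unadjusted p 0.00963) both had an adjusted p of 0.294. Both rest on PMN libraries at 0 counts, and their fitted values are therefore no measure of size. Limma-voom with sample weights called none of the 9, with unadjusted p values under 0.05 for Got2 (0.0233) and Gfpt1 (0.0455). Without PMN vehicle replicate 2, the vehicle library that lacked Cad, the interaction of Cad had an adjusted p of 0.0391.

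The levels of each enzyme were then compared between neutrophils and tubular cells. In the vehicle libraries, scaled together, Glul and Ppat were lower in PMN than in TECs and Oat was higher, and the other 5 enzyme genes tested did not pass an adjusted p of 0.05. Among 14802 genes tested, 27.1% were lower and 12.5% higher in PMN by that rule, so 2 lower and 1 higher of 8 is no more than the background. Cell type, count table and sequencing run are the same split and cannot be told apart.

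On this joined scale Glul read 855, 1049 and 932 CPM in TECs and 236.7, 229.9 and 418.1 CPM in PMN, with no overlap. The difference was -1.68 ± 0.31 on the log2 scale (interval -2.44 to -0.92, adjusted p 0.00698), or 3.2-fold lower in PMN. Relative to the TEC mean, single PMN vehicle libraries held 24.3% to 44.2% of Glul, 2.88% to 6.56% of Kap and 0.541% to 1.55% of Slc34a1, both proximal tubule genes, and 0.269% to 102.5% of Umod. In library 1 Umod stood above Glul by this measure (102.5% and 25.1%), and in the other 2 below it. The part of tubule RNA in the PMN values of Glul was not tested.

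Oat read 70.1, 55.9 and 53.1 CPM in TECs and 191.1, 182.0 and 196.2 CPM in PMN. All PMN libraries lay at 305% to 329% of the TEC mean, and the groups did not overlap. The log2 difference was 1.67 ± 0.32 (interval 0.88 to 2.45, adjusted p 0.00792), and without TEC vehicle replicate 4 it was 1.61 ± 0.49 with an adjusted p of 0.0603. With upper-quartile scaling, which moved the median log2 difference of all genes from -0.49 to -0.98, Oat remained higher at 1.17 (adjusted p 0.0320) and Glul lower at -2.18 (adjusted p 0.00547).

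Ppat read 7.77, 17.6 and 19.3 CPM in TECs and was at 0 in the 3 PMN vehicle libraries. Against a floor of 3 counts per library, the TEC mean was 78.4-fold higher and the lowest TEC library 41.0-fold higher (adjusted p 0.00636). This floor covers counting error only, and many genes were missing from single PMN libraries. Among the glutamine-treated PMN, 1 library held 1033 counts of Ppat.

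Glud1 was lower in each PMN library than in each TEC library, with 324, 283 and 271 CPM in TECs and 189.4, 178.2 and 109.8 CPM in PMN. Its log2 difference of -0.88 ± 0.32 missed the threshold (adjusted p 0.0749), but passed it with upper-quartile scaling (-1.38, adjusted p 0.0149) and with at least 10 counts required in every library (-1.19, adjusted p 0.0199). In the other alternatives it missed the threshold, with adjusted p values from 0.0515 (without PMN vehicle replicate 1) to 0.23 (without TEC vehicle replicate 3), DESeq2 (0.124) and limma-voom (0.0598) among them. Gfpt1, at 21.9, 19.9 and 12.03 CPM in TECs against 0, 1.09 and 1.23 CPM in PMN, differed by -4.52 ± 1.68 (adjusted p 0.0808), and passed with DESeq2 (adjusted p 0.00214), with weighted limma-voom (0.0130) and without PMN vehicle replicate 1 (0.0125), but not with upper-quartile scaling (0.0623). Got2 was lower in every PMN library as well, at -1.30 ± 1.72 (adjusted p 0.628); the value was -0.68 without PMN vehicle replicate 2, -2.41 without PMN vehicle replicate 3 and -4.89 with limma-voom. In all, the ranges did not overlap for 5 genes lower in PMN (Glul, Glud1, Got2, Gfpt1 and Ppat) and 1 higher (Oat), against 40.5% of all genes lower and 16.7% higher. Got1 (-0.35 ± 0.60, adjusted p 0.721) and Cad (2.04 ± 2.09, adjusted p 0.520) overlapped between the cell types. For Cad the difference was 0.56 ± 2.12 without PMN vehicle replicate 1, the library with 1026 CPM of Umod, and 2.63 ± 0.89 (unadjusted p 0.0314, adjusted p 0.0592) without PMN vehicle replicate 2, which had no Cad counts. Gls2 did not pass the filter of the edgeR fit; DESeq2 called it lower in PMN with an adjusted p of 0.0186, edgeR without a filter gave 0.0658, and edgeR without TEC vehicle replicate 5, where it passed the filter, gave 0.0287.

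The enzymes next to these on the same pathways were taken from 9 lists holding 56 genes with the members. Between glutamine and vehicle, edgeR called none of the 50 list genes tested in TECs, where 9 had an unadjusted p under 0.05, against 12.8% of all genes, and limma-voom called 0. DESeq2, which called 247 of 12739 genes in all, called 2, Psat1, a serine synthesis aminotransferase (log2 fold change -0.99, adjusted p 0.0340), and Gclm, the modifier subunit of glutamate-cysteine ligase (-0.73, adjusted p 0.0381). In PMN, edgeR and limma-voom called none of the 36 tested, 1 had an unadjusted p under 0.05, against 3.48% of all genes, and DESeq2 called Cad and Gclc. Gclc, the catalytic subunit of glutamate-cysteine ligase, read 86.5, 8.24 and 5.33 CPM in PMN after vehicle and 0, 0.188 and 0 CPM after glutamine, with an unadjusted p of 0.0163 in edgeR and an adjusted p of 0.00125 in DESeq2. The 86.5 CPM were in vehicle library 1, the library with 1026 CPM of Umod, and Gclc read 611.5 to 1327 CPM in TECs; the part of tubule RNA was not tested.

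List by list, the TEC medians of glutamine against vehicle were small. The median log2 fold change was -0.11 for the 9 amidotransferases tested, -0.11 for the 12 genes of glutamate dehydrogenation and transamination, -0.26 for the 4 of glutaminases and their partners, and 0.09 for the 6 of ornithine and proline, against 0.01 over all genes tested. It was 0.00 for the 7 malate-aspartate shuttle genes, 0.05 for the 4 hexosamine genes, -0.41 for the 9 purine genes, -0.50 for the 4 pyrimidine genes and -0.30 for the 4 glutathione genes. In PMN the medians were -2.74 for the 4 glutathione genes tested, -1.15 for 2 pyrimidine genes and -0.64 for 8 purine genes, and between -0.19 and 0.48 for the other 6 lists, against -0.0004 over all genes. Within the purine list the extremes in TECs were Pfas, an amidotransferase, at 0.83 (unadjusted p 0.00514) and Gart at -0.73 (unadjusted p 0.0290), which lie on the same pathway and had opposite signs. Kyat3, a kynurenine aminotransferase, had the highest value of its list, 1.18 (unadjusted p 0.00297, adjusted p 0.217), at 8.09, 7.08 and 7.95 CPM after vehicle and 16.1, 22.5 and 14.1 CPM after glutamine. In these 3 genes, every glutamine library lay to the same side of every vehicle library, and Pfas and Gart had adjusted p values of 0.232 and 0.340.

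Between the cell types, 19 of the 50 list genes tested passed, against 5848 of 14802 over all genes, a share no larger than that background. Of the ornithine and proline genes reported here, Oat was higher in PMN and Odc1 and Prodh lower. Odc1, the decarboxylase that takes ornithine to polyamines, read 278.7, 293.9 and 345.3 CPM in TECs and 24.0, 38.7 and 11.3 CPM in PMN on the joined scale, a log2 difference of -3.63 ± 0.54 (adjusted p 0.00578).

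Of the 12 glutamate dehydrogenation and transamination genes tested, Oat alone was higher in PMN and 5 were lower, with a median log2 difference of -2.48, beside 12.5% higher and 27.1% lower and a median of -0.49 over all genes; whether the list differs from other genes was not tested. The 5 were Gpt, Gpt2, Aadat, Kyat3 and Bcat1, aminotransferases of alanine, aminoadipate, kynurenine and branched-chain amino acids. Of the 8 amidotransferases tested, 3 were lower (Ppat, Asns and Ctps) and 0 higher, with a median of -2.89; at an unadjusted p under 0.05 the count was 4, DESeq2 called 5 and limma-voom 3. Asns, asparagine synthetase, and Ctps, CTP synthase, read 14.2 to 24.3 CPM and 27.9 to 33.2 CPM in TECs and 0 in the 3 PMN vehicle libraries, while glutamine-treated PMN library 3 held 1371 counts of Ctps. Among the glutaminase partners, Pck1, a gluconeogenic enzyme, was lower in PMN (adjusted p 0.0260), as were Gclc, Gss and Ggt1 of the 4 glutathione genes (adjusted p 0.0268, 0.0345 and 0.0194). Mdh2, mitochondrial malate dehydrogenase, was the 1 shuttle gene of 7 that passed, higher in PMN by 0.98 ± 0.23 (adjusted p 0.0170).

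Whether the remaining 3 lists differ from the 12.5% higher and 27.1% lower over all genes was not tested. Of the 9 purine genes 1 passed (Ppat; DESeq2 also called Impdh1), of the 4 pyrimidine genes 1 passed (Ctps), and of the 4 hexosamine genes edgeR and limma-voom called 0, with 1 (Gfpt1) at an unadjusted p under 0.05 and called by DESeq2. The X-linked list genes Ctps2 and Ogt were not analysed here.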

How the data were processed

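Salmon quantified reads per gene, and the values the authors deposited are estimated counts, not normalized, 1 table per cell type. Per the submitters' notes, reads were trimmed with Trim Galore 0.6.4 and quantified with Salmon 1.0.0, with mm10 as the build; polyadenylated RNA was read as 50-base single-end reads. The deposited PMN table had passed through a spreadsheet program: 3.20% of its cells held extra points and 0.391% had become dates, and these were decoded back to estimated counts; a date leaves the second decimal of a small value unknown. It holds 2 columns per library (r 0.995 to 0.996), which were averaged and counted as 1 sample. All value columns were used.

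Estimated counts were rounded, scaled by TMM, filtered with filterByExpr and tested with edgeR 4.0.16 (quasi-likelihood, Benjamini-Hochberg over all genes tested) in R 4.3.3. Each table was fitted alone; the vehicle libraries, and all 12, were also joined by gene name. CPM are on each table's own scale unless called joined. Alternatives were DESeq2 1.42.0, limma 3.58.1 (voom), other scalings and filters, single PMN columns and leaving out libraries. Plain counts had been planned for both tables. The edgeR fits were tested on simulated counts, with 100 genes changed by 2 and 100 by 6 on the log2 scale. Of the changes of 2, 97% were recovered in TECs, 3% in PMN and 0% between cell types. Of the changes of 6, 100%, 57% and 39% were recovered. A gene of PMN or between cell types that did not pass may therefore still differ. Transcript lengths and positions came from GENCODE M21. The members and lists were chosen with earlier results of these data known. Named were all members and, from the lists, genes past the threshold or with the highest or lowest fold change of their list; Paics and list genes that only DESeq2 called were added after their values were seen. Some list genes are counted in their lists but not reported here by name.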

Additional observations from a re-analysis of the deposited data

How the results depend on the processing

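Refitted under the alternatives, the enzymes' fold changes kept their direction and their side of the threshold in 90 of 104 fits in TECs, 81 of 82 in PMN, 91 of 100 between cell types and 113 of 120 for the interaction. Genes past the threshold in TECs went from 0 to 247 with DESeq2, 425 in edgeR without a filter on low counts, and between 0 and 36 on leaving out 1 library (36 without glutamine replicate 2, 4 without vehicle replicate 5); in PMN they went from 0 to 326 with DESeq2. Enzymes past the threshold went from 0 to 1 (Cad) in PMN and from 3 to 5 between cell types with DESeq2, and from 0 to between 0 and 1 for the interaction on leaving out 1 library. Between cell types 5848 genes passed, 3874 with limma-voom and 2198 with at least 10 counts in every library.

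The signs of some enzymes changed. In TECs, Got1 and Gfpt1 were -0.0181 and -0.0075 with upper-quartile scaling and -0.0248 and -0.0124 without a filter. On leaving out 1 TEC library, Got1 ranged from -0.0918 to 0.140, Got2 from -0.163 to 0.0257, Gfpt1 from -0.21 to 0.20 and Oat from -0.22 to 0.11. On leaving out 1 PMN library, Glud1 ranged from -0.41 to 0.0166 in PMN, and leaving out 1 vehicle library moved Got1 between cell types from -0.65 to 0.0812. The interaction of Glul ranged from -0.37 to 0.32. Gls2 was at 0 counts in every PMN library, so its change in PMN and its interaction cannot be estimated. The fitted interaction of Gls2 was 0.38 ± 735 (SE) with no library left out, and went from -0.17 to 0.79 under the alternatives. These values of Gls2 are no measure of size or direction. Cad between cell types was -1.05 with limma-voom and -1.05 with sample weights. The cause was not tested. No paired analysis was possible because replicate 3 is the 1 number in common between the TEC groups and numbers of PMN libraries are names without a pairing. Genes missing from single PMN libraries limit what can be read there. Among genes with a mean of at least 10 CPM, this was most frequent at 10 to 50 CPM (53.0% of genes tested). It also occurred at 50 to 200 CPM (9.19%), and genes with a mean under 10 CPM were not compared.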
